A study of Drosophila melanogaster with 26 samples.

Results

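The comparison described here asks whether transcripts changed differently in smaug mutant and wild-type primordial germ cells (PGCs) of Drosophila melanogaster between 3-to-5 and 5-to-7 hours of embryogenesis. It is a genotype by time interaction. The change from 3-to-5 to 5-to-7 hours in mutant PGCs, as a log2 difference, had the same change in wild-type PGCs subtracted from it, for each of 16623 transcripts. The 4 groups were chosen by sample title and hold 15 of the 26 samples of the series: 4 wild-type samples at 3-to-5 hours, 4 wild-type samples at 5-to-7 hours, 3 mutant samples at 3-to-5 hours and 4 mutant samples at 5-to-7 hours. A positive value means that a transcript rose more, or fell less, in the mutant.

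PGCs are the founders of the germ line. They bud at the posterior pole of the embryo, where they inherit the germ plasm. In wild type, at the stages sampled here, they move from the midgut pocket into the surrounding tissue. In smaug mutants, the study reports, germ-band extension is missing or abnormal, and the PGCs stay at the pole or shift only a little. Their early transcripts are maternal, and the maternal-to-zygotic transition replaces these with zygotic ones. Smaug is an RNA-binding protein that recognises hairpins in target mRNAs, recruits the CCR4/NOT deadenylase and represses translation, and in the embryo it is needed both for maternal transcripts to be cleared and for zygotic ones to appear.

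The stock that gave the wild-type embryos is not stated in the sources used here. Beside the stocks with smg1 and the deficiency, they list w1118 and VASA-GFP/CyO; PrDr/TM3, Sb, which may be a single stock or separate ones. Mutant embryos came from mothers that carried smg1 over the deficiency Df(3L)Scf-R6, and the genotype of the fathers is not given in the sources used here. The deficiency also removes 1 copy of other genes in these mothers. In both genotypes PGCs were labelled by GFP from a VASA-GFP transgene, which the PrDr and smg1 stocks carry over a balancer. Cells were dissociated with trypsin and sorted by GFP. RNA was amplified and 2 samples, in 2 dyes, went onto each array, and the pairs that shared an array are not given in the sources used here.

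Dye and the wild-type 5-to-7 hour samples touch every result. By the labels, the mutant 3-to-5 hour samples were in Cy3 and the other 3 groups in Cy5, so that dye and interaction cannot be told apart. The study's methods give another scheme, with wild type in Cy3 and mutant in Cy5, under which the dye would cancel. Because both 1-to-3 hour PGC groups are in Cy5 by the labels, the main results are also given with 1-to-3 hours as the earlier time point. Wild-type 5-to-7 hour replicates 3 and 4 stood apart from replicates 1 and 2. Spearman's correlation over transcripts was 0.974 between replicates 1 and 2, 0.913 between replicates 3 and 4, and 0.868 to 0.895 between the pairs, against at least 0.942 within each of the other 3 groups.

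Replicates 3 and 4 carried more signal from transcripts of somatic cells. The median log2 signal of 1950 transcripts that were soma-enriched at 1-to-3 hours, a list taken from arrays outside the interaction, was 8.72 and 8.99 in replicates 1 and 2 but 10.83 and 10.63 in replicates 3 and 4, against 11.10 to 11.14 in sorted somatic cells. The 2260 PGC-enriched transcripts went the other way, at 10.71 and 10.69 in replicates 1 and 2 and at 9.39 and 9.57 in replicates 3 and 4. Of 53 somatic marker genes, 22 had a transcript that could be named, and none of the 22 was at the level of the control features in all 4 groups. That level was set at a log2 signal of 5.81, which is 1 above the highest sample median of the control features (4.81). The summed linear signal of the 22 genes was 32952 and 33651 in replicates 1 and 2, 124844 and 125110 in replicates 3 and 4, and 19650 to 23222 in the mutant 5-to-7 hour samples. In RNA from bulk sorted cells, fewer cells of a type and less RNA per cell cannot be told apart.

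**Figure D1:**
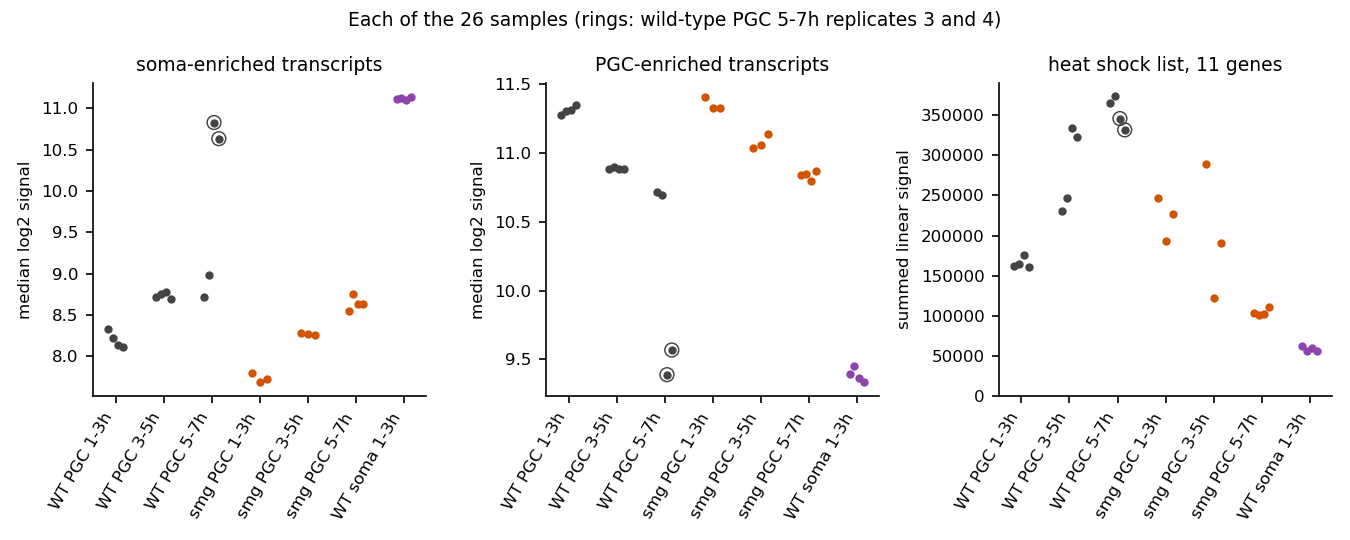
Each point is 1 of the 26 samples, by group (x axis). The panels give the median log2 signal of the soma-enriched transcripts, the same for the PGC-enriched transcripts, and the summed linear signal of the 11 named heat shock list genes. Rings mark wild-type PGC 5-7h replicates 3 and 4, which sit at 10.83 and 10.63 in the first panel and at 9.39 and 9.57 in the second, next to the somatic cells, whereas the heat shock sum sets all 4 wild-type 5-7h samples above all 4 mutant ones.

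At a Benjamini-Hochberg adjusted p of at most 0.05 over all 16623 transcripts and a difference above 2-fold, 266 transcripts (1.6%) were higher in the interaction and 258 (1.55%) were lower. The 5383 transcripts that could be named held 184 of the 266 and 126 of the 258. Named transcripts were thus called more often than all transcripts, in both directions. The gene lists below, other than the soma- and PGC-enriched ones, hold named transcripts only. For them the share over all 16623 transcripts is therefore a low background. Within the genotypes, 843 transcripts rose (5.07%) and 909 fell (5.47%) in wild-type PGCs from 3-to-5 to 5-to-7 hours, and 590 rose (3.55%) and 799 fell (4.81%) in mutant PGCs. The counts depended on single samples. Leaving out any 1 of the 15 samples gave 61 to 534 higher and 85 to 448 lower transcripts, and they stayed within 1.5 times the full counts only without mutant 5-to-7 hour replicate 2 or without wild-type 5-to-7 hour replicate 3 or 4. They went up when wild-type 5-to-7 hour replicate 1 (534 and 448), 2 (455 and 401) or 3 (312 and 303) was left out, and down when any 1 of the other 12 samples was. The fewest calls were left without a mutant 3-to-5 hour sample, at 61 and 85 without replicate 1, 70 and 96 without replicate 2, and 66 and 93 without replicate 3. Without mutant 5-to-7 hour replicate 1, 3 or 4 they were 121 and 127, 147 and 146, and 104 and 111. Without wild-type 3-to-5 hour replicates 1 to 4 in turn they were 82 and 98, 113 and 119, 130 and 148, and 87 and 118.

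With wild-type 5-to-7 hour replicates 1 and 2 alone, 536 transcripts were higher (3.22%) and 574 lower (3.45%). With replicates 3 and 4 alone, the counts were 2268 (13.6%) and 1926 (11.6%). Of the 266 higher transcripts, 234 were past 2-fold in the same direction with each pair, and of the 258 lower ones 244 were, though these were picked from the fit that holds both pairs. Of the 536 higher and 574 lower transcripts called with replicates 1 and 2, 96 and 104 had the opposite sign with replicates 3 and 4. With 1-to-3 hours as the earlier time point, 345 transcripts were called higher (2.08%) and 438 lower (2.63%), among them 85 of the 266 and 123 of the 258. That time point together with wild-type replicates 1 and 2 gave 683 higher (4.11%) and 887 lower (5.34%). All of these comparisons share the 5-to-7 hour samples. Of the 38 named transcripts called under the naming rule, 11 stayed called whichever of the 15 samples was left out. They were CG14014, AcCoAS, Rga, Hsp68, Hsp70Bbb, Hsp22, Hsp67Bb FBtr0100655, E(spl), FBtr0074985, numb and RpL21. The other 27 lost the call without at least 1 sample, among them bam in 2 of these 15 fits, CG12947 in 3, MED1 in 5, Tpi in 7, stv and mRpS11 in 8, RpS12 in 9, and SNCF, Prosbeta1 and His1:CG33861 in 10.

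**Figure D2:**
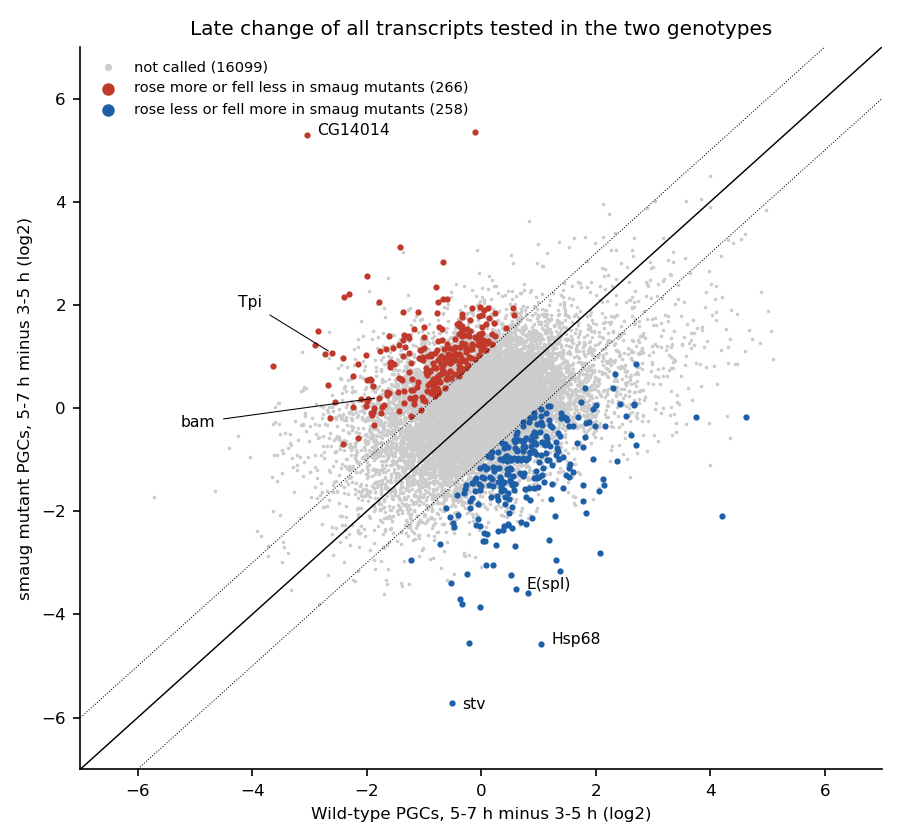
Each point is a transcript. The x axis is the change from 3-5 h to 5-7 h in wild-type PGCs and the y axis the same change in smaug mutant PGCs, both as log2 differences of group means. The solid line marks equal change and the dotted lines a 2-fold interaction. The 266 higher calls lie above the lines and the 258 lower calls below them, with CG14014 (8.34) and Hsp68 (-5.61) far from both.

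The largest class of called transcripts held those whose genotype difference was present at 3-to-5 hours and had closed by 5-to-7 hours. Among the 266 higher transcripts, 137 were over 2-fold lower in the mutant at 3-to-5 hours and within 2-fold of wild type at 5-to-7 hours, 43 were within 2-fold first and apart later, and 22 were apart at both times with opposite signs. Among the 258 lower transcripts, 128 had started over 2-fold above wild type and came within 2-fold, 46 opened up at 5-to-7 hours, and 34 crossed over. With 1-to-3 hours as the earlier time point, 28 of the 137 and 55 of the 128 were also called. The corresponding numbers were 22 of 43 and 24 of 46 for those that opened up, and 14 of 22 and 13 of 34 for those that crossed. By each genotype's own change, 98 of the 266 rose over 2-fold in the mutant only, 63 fell over 2-fold in wild type only and 27 did both, whereas 78 passed 2-fold in neither. Of the 258, 114 fell over 2-fold in the mutant only, 58 rose over 2-fold in wild type only and 30 did both.

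The transcript of the mutated gene itself had no detectable interaction. Its more abundant named transcript (FBtr0076550) was at 12.48, 12.52, 12.66 and 12.61 in the wild-type samples at 3-to-5 hours and at 11.54, 12.22, 11.69 and 11.53 at 5-to-7 hours, as log2 signal. In the mutant it was at 11.46, 11.67 and 11.73 and then at 10.94, 11.36, 10.74 and 10.58. All mutant samples lay below all wild-type samples of their time, and the interaction was 0.11 ± 0.30 (SE, adjusted p = 0.874 by limma). The other smg transcript (FBtr0076549) gave -0.29 ± 0.82 (adjusted p = 0.872), and one mutant sample at 5-to-7 hours, replicate 2, was at 7.44 where the others were at 10.11 to 10.92. FBtr0076550 was called with 1-to-3 hours as the earlier time point, at 1.35 ± 0.36 (adjusted p = 0.0471), since its wild-type level had been 13.25 to 13.98 there. The smg1 lesion is not placed relative to the probes in the sources used here, so this level does not check the labels.

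The lower side of the interaction was led by genes of the heat shock response, whose products are chaperones and co-chaperones made when proteins unfold. Of 12 transcripts of 11 listed heat shock genes, 9 were lower and none higher, against 1.55% lower over all transcripts, and the median interaction of the list was -3.30 against 0.01 over all transcripts. The medians were -3.29 with wild-type replicates 1 and 2, -3.11 with replicates 3 and 4 and -4.78 with 1-to-3 hours as the earlier time point. In the last of these 10 of the 12 were called lower, beside 2.63% of all transcripts.

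Hsp68, an inducible member of the Hsp70 family, had a log2 signal of 13.76, 13.98, 14.48 and 14.36 in the earlier wild-type samples and of 15.27, 15.28, 15.20 and 14.98 in the later ones. In mutant PGCs it went from 14.54, 12.62 and 13.57 to 9.04, 8.66, 9.18 and 9.14. The 5-to-7 hour groups did not overlap, and the mutant mean minus the wild-type mean was -6.18 there but -0.57 at 3-to-5 hours. The interaction was -5.61 ± 0.47 (adjusted p = 8.78e-05), with -5.70 from wild-type replicates 1 and 2 and -5.52 from replicates 3 and 4. Taking 1-to-3 hours as the earlier time point, it was -6.69 ± 0.32 (adjusted p = 1.11e-07).

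The Hsp70 genes, which encode the main inducible cytosolic chaperone, were lower as well. Hsp70Bbb was at 14.81 to 15.55 in wild type at 3-to-5 hours and at 15.51, 15.63, 15.89 and 15.84 at 5-to-7 hours, and in the mutant at 14.94, 12.92 and 14.19 and then at 10.89, 10.65, 10.93 and 10.60. Its interaction was -3.76 ± 0.50 (adjusted p = 0.00293). Hsp70Ba gave -3.26 ± 0.56 (adjusted p = 0.0107) and Hsp70Ab -2.90 ± 0.48 (adjusted p = 0.0104). The Hsp70 genes are near-identical copies, so that their probes may share signal and the 3 values are not independent. Their mutant 3-to-5 hour samples spread widely, with an SD of 1.11 for Hsp70Ba and 1.03 for Hsp70Ab, and replicate 2 was the lowest of the 3 in each.

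The small heat shock genes differed in whether they were called. Hsp22, whose product lies in mitochondria, was at 10.53, 10.43, 11.18 and 11.24 and then at 10.36, 10.13, 11.08 and 10.45 in wild type, and at 11.48, 10.26 and 11.03 and then at 7.07, 7.02, 7.16 and 7.24 in the mutant. Of these 4 groups only the mutant 5-to-7 hour samples were low, and the interaction was -3.46 ± 0.42 (adjusted p = 0.00211). Hsp23 was at 14.47 to 15.68 in the mutant at 3-to-5 hours and at 11.78 to 12.47 later, with an interaction of -3.13 ± 0.41 (adjusted p = 0.00289). Hsp26 and Hsp27 were not called. Hsp26 was at -1.12 ± 0.34 (adjusted p = 0.0897), with mutant 5-to-7 hour samples at 13.17 to 13.73, but it was called with 1-to-3 hours as the earlier time point, at -2.20 (adjusted p = 0.000914). Hsp27 was at 0.40 ± 0.33 (adjusted p = 0.537), with mutant 5-to-7 hour samples at 15.06 to 15.23.

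Starvin (stv), a BAG-domain co-chaperone of Hsp70, was at 11.31, 11.19, 12.26 and 12.14 in wild type at 3-to-5 hours, and at 12.97 and 12.85 in replicates 1 and 2 but at 9.32 and 9.68 in replicates 3 and 4 at 5-to-7 hours. In the mutant it went from 11.31, 9.62 and 10.94 to 4.25, 5.59, 4.21 and 5.59, which is at the level of the control features as set above (up to 5.81). The interaction was -5.20 ± 1.15 (adjusted p = 0.0298) as measured, and -4.29 with the low samples raised to that level, which bounds it from one side. It was -6.90 with wild-type replicates 1 and 2 and -3.49 with replicates 3 and 4. Of the transcripts that the study names Hsp67Bb, FBtr0100653 gave -4.34 ± 0.60 (adjusted p = 0.00404), or -3.23 with the mutant 5-to-7 hour samples, which were at 4.30 to 5.27, raised to the control level, and FBtr0100655, which now carries the name CG4456, gave -3.33 ± 0.44 (adjusted p = 0.00293). DnaJ-1, an Hsp40 co-chaperone, showed 0.05 ± 0.22 (adjusted p = 0.921), with all mutant 5-to-7 hour samples between 15.31 and 15.58.

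At the level of whole samples, the summed linear signal of the list lay between 231091 and 334171 in the earlier wild-type group and between 331842 and 374393 in the later one. In the mutant it was 289607, 122639 and 190264 in the earlier group and fell within 101109 to 110572 in the later one. Wild-type replicates 3 and 4, with their somatic signal, were at 345957 and 331842, and somatic cells at 1-to-3 hours were lower than any PGC sample, at 55513 to 62173. Cells were warmed during dissociation in both genotypes, and whether any part of these levels arose then was not tested.

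**Figure D3:**
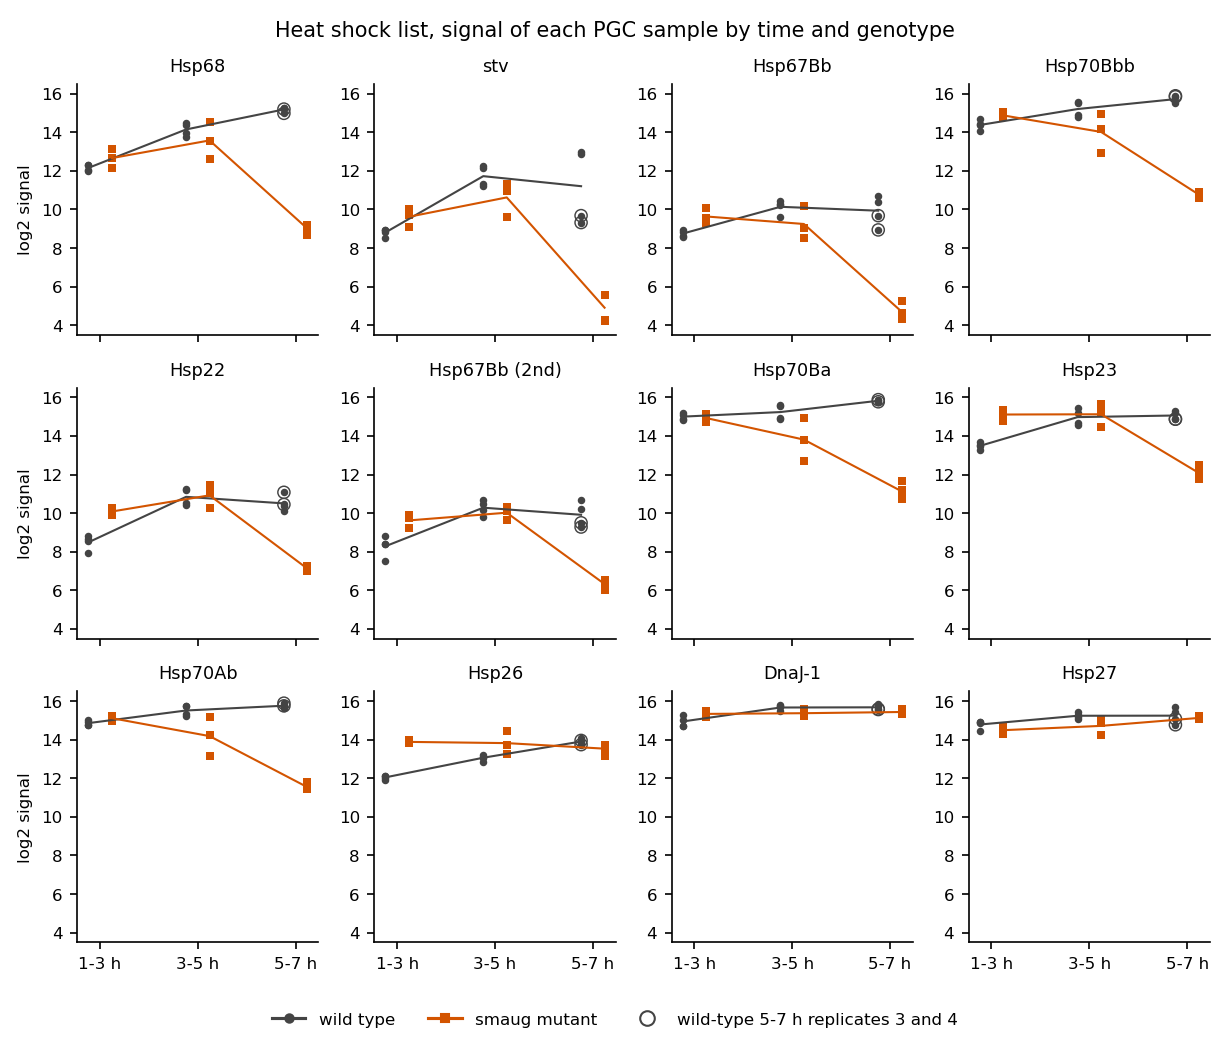
Log2 signal (y axis) of the 12 heat shock list transcripts in each PGC sample at 1-3, 3-5 and 5-7 hours (x axis), wild type as circles and smaug mutant as squares, with lines through the group means and rings around wild-type 5-7h replicates 3 and 4. In 9 panels the mutant squares drop far below the wild-type circles at 5-7 h, as Hsp68 does to 8.66 to 9.18, whereas in Hsp26 the highest square (13.73) adjoins the lowest circle (13.74) and in DnaJ-1 and Hsp27 the genotypes overlap.

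Other genes were lower by similar amounts. E(spl), a basic helix-loop-helix repressor that responds to Notch signalling (now named E(spl)m8-HLH), was at 13.62 to 14.10 and then at 13.89, 13.77, 15.29 and 15.27 in wild type. In the mutant it was at 13.63, 12.22 and 13.79 and then at 9.36, 9.21, 10.57 and 9.71, and the interaction was -4.11 ± 0.65 (adjusted p = 0.00881). FBtr0074985, the transcript of FBgn0052208, was at 9.13, 9.51, 9.47 and 9.31 and then at 10.51, 10.39, 10.86 and 10.37 in wild type. It went from 11.83, 11.61 and 11.40 to 9.01, 9.11, 8.97 and 9.16 in the mutant. Wild type and mutant thus moved in opposite directions and crossed, with an interaction of -3.73 ± 0.25 (adjusted p = 6.3e-06). In a test against a 2-fold change, rather than against no change, 6 transcripts were lower and none higher, with 483 at an unadjusted p under 0.05. The 6 were Hsp68, FBtr0074985 and 4 transcripts that could not be paired with a gene.

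RpS12, a ribosomal protein of the small subunit, was at 10.97 to 12.22 and then at 10.12 to 13.09 in wild type, and at 10.42 to 10.84 and then at 7.45 to 7.77 in the mutant, giving -3.25 ± 0.70 (adjusted p = 0.0291). Few others of its class were called. Of 109 cytoplasmic ribosomal protein transcripts, 2 were higher (1.83%, against 1.6% of all transcripts) and 3 lower (2.75%, against 1.55%), and their median interaction was 0.01. With 1-to-3 hours as the earlier time point the median was -0.44 and 17 of the 109 were lower, beside 2.63% of all transcripts.

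Regulators of stem cell and germ cell fate were called in both directions. Of 46 transcripts of 20 genes, 3 were higher and 3 lower (6.52% in each direction, against 1.6% and 1.55% of all transcripts). Numb, which is divided unequally between daughter cells and inhibits Notch, was at 8.30, 9.44, 8.90 and 9.13 and then at up to 9.66 in replicates 1 and 2 and at 11.13 and 11.15 in replicates 3 and 4 in wild type. Mutant samples were at 11.06, 10.90 and 11.13 at 3-to-5 hours, above every wild-type sample of that time, and at 9.01, 9.09, 8.91 and 8.76 later. Its interaction was -3.37 ± 0.61 (adjusted p = 0.0152), with -2.47 from wild-type replicates 1 and 2, but -1.51 ± 0.59 (adjusted p = 0.16) with 1-to-3 hours as the earlier time point. A transcript of the zinc-finger repressor ttk (FBtr0085825) was also lower (-3.66 ± 0.73, adjusted p = 0.0211), as was one of the transcription factor ewg (FBtr0089441, -1.89 ± 0.40, adjusted p = 0.0264). A transcript of the zinc-finger factor lola (FBtr0089342) was called higher, at 1.57 ± 0.24 (adjusted p = 0.0078), and no other listed transcript of ttk, ewg or lola was called. These 3 transcripts were not called with 1-to-3 hours as the earlier time point, at adjusted p of 0.066 for ttk, 0.289 for ewg and 0.153 for lola.

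Of the higher regulators, bam is the switch from germline stem cell to differentiation in the ovary. It was at 11.57, 11.47, 10.97 and 11.11 and then at 10.02, 9.87, 9.37 and 8.70 in wild type. In the mutant it was at 10.74, 10.59 and 10.42 and then at 10.76, 10.74, 10.58 and 11.05, so that the mutant samples were below wild type first and above it later. The wild-type change was -1.79 (adjusted p = 0.00171) and the mutant change 0.20 (adjusted p = 0.729). The interaction was 1.99 ± 0.39 (adjusted p = 0.0197), and 2.12 ± 0.40 (adjusted p = 0.011) with 1-to-3 hours as the earlier time point. SNCF was at 12.38, 12.29, 11.73 and 11.70 and then at 10.48, 9.81, 9.14 and 10.30, and in the mutant at 10.17, 8.80 and 10.01 and then at 9.26, 9.87, 10.33 and 9.88. Its interaction of 2.27 ± 0.53 (adjusted p = 0.0372) rested on the 3-to-5 hour groups, since with 1-to-3 hours as the earlier time point it was -0.06 ± 0.46 (adjusted p = 0.954).

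The largest interaction among named genes was that of CG14014, a gene whose product the files do not describe. It was at 8.06, 9.71, 6.43 and 4.97 in wild type at 3-to-5 hours, and at 4.46, 4.68, 3.89 and 3.95 at 5-to-7 hours, at the level of the control features. In the mutant it was at that level at 3-to-5 hours (4.59, 4.61 and 4.87) and at 7.18, 10.00, 11.46 and 11.30 at 5-to-7 hours. All 7 PGC samples at 1-to-3 hours had signal, between 8.95 and 10.99. The interaction was 8.34 ± 1.42 (adjusted p = 0.0107) as measured, and 5.65 with the samples of both low groups raised to the control level. It was 6.89 ± 1.05 (adjusted p = 0.00386) with 1-to-3 hours as the earlier time point.

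Metabolic enzymes were among the 8 named genes with the largest higher values. Tpi, the glycolytic triose phosphate isomerase, was at 7.55, 8.47, 9.31 and 8.39 and then at 7.19, 6.51, 4.94 and 4.64 in wild type, and at 9.09, 8.56 and 9.21 and then at 9.82, 9.84, 10.83 and 9.56 in the mutant. The interaction was 3.67 ± 0.78 (adjusted p = 0.0276), or 2.64 with wild-type replicates 1 and 2. In replicates 3 and 4 Tpi lay below the control level of 5.81, so that 3.67 holds only as measured. AcCoAS, acetyl-CoA synthase, was at 12.58 to 12.86 and then at 11.34, 11.66, 10.08 and 9.87 in wild type, and at 10.75, 10.76 and 10.79 and then at 11.57, 11.77, 11.34 and 12.48 in the mutant, giving 3.03 ± 0.53 (adjusted p = 0.0129). Tret1-2, a trehalose transporter, gave 3.39 ± 0.82 (adjusted p = 0.0429), but was not called with 1-to-3 hours as the earlier time point (adjusted p = 0.118) or in 12 of the 15 fits without 1 sample. Tpi was the only 1 of 11 transcripts of 10 listed glycolytic enzymes that was called (9.09% higher, against 1.6% of all transcripts). All 11 values were above 0, with a median of 1.01, but the median was 0.06 with wild-type replicates 1 and 2 and 2.03 with replicates 3 and 4. PyK, for example, was at 13.04 and 12.64 in replicates 1 and 2 and at 9.77 and 10.86 in replicates 3 and 4, and its interaction was 1.58 ± 0.78 (adjusted p = 0.285).

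The other 4 of the 8 are known by CG number only. CG12947 rose in the mutant from 11.62, 11.70 and 10.88 to 13.94, 13.49, 13.76 and 13.82, above every other PGC sample, with an interaction of 3.15 ± 0.63 (adjusted p = 0.0213). CG13124, at 11.02 to 11.91 and then at 9.74, 10.38, 7.38 and 8.27 in wild type, stayed between 9.30 and 10.21 in the mutant (3.12 ± 0.75, adjusted p = 0.04). CG18171 gave 4.52 ± 1.12 (adjusted p = 0.0452) and CG14797 gave 4.46 ± 1.14 (adjusted p = 0.0497). CG12947 was also called with 1-to-3 hours as the earlier time point (adjusted p = 0.00665), whereas CG13124, CG18171 and CG14797 were not, at adjusted p of 0.0696, 0.223 and 0.133. These last 3 lost the call in 12, 12 and 13 of the 15 fits without 1 sample. CG18171 and CG14797 were also not called with wild-type replicates 1 and 2 (adjusted p = 0.0602 and 0.0625).

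**Figure D4:**
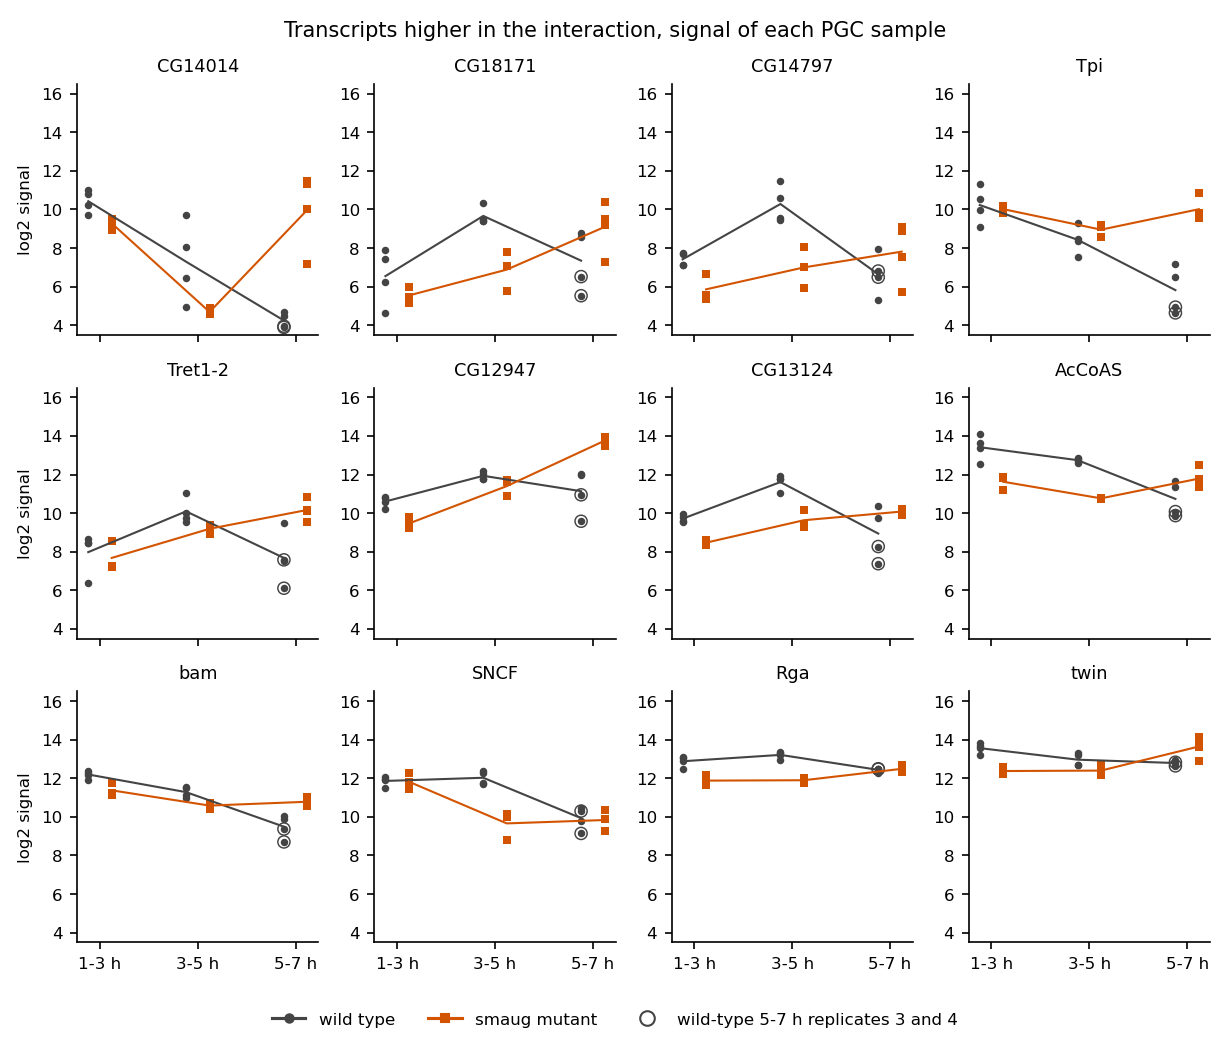
Log2 signal (y axis) in each PGC sample at 1-3, 3-5 and 5-7 hours (x axis) of the 8 named genes with the largest higher values and of bam, SNCF, Rga and the most abundant twin transcript, drawn as in the plot of heat shock genes. CG14014 returns in the mutant to between 7.18 and 11.46 at 5-7 h, and from 3-5 h to 5-7 h bam and Tpi fall in wild type only.

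A list of Smaug itself and the mRNA decay machinery also held genes such as nos and AGO1. Of its 25 transcripts, 2 were higher (8%, against 1.6% of all transcripts) and none lower (against 1.55%). Both belong to the CCR4/NOT deadenylase. Rga (Not2) was at 12.97 to 13.36 and then at 12.49, 12.29, 12.49 and 12.47 in wild type, and at 11.99, 11.73 and 11.97 and then at 12.67, 12.46, 12.33 and 12.49 in the mutant. The genotypes were apart at 3-to-5 hours and overlapped at 5-to-7 hours, with an interaction of 1.36 ± 0.22 (adjusted p = 0.0104). A transcript of twin (FBtr0084571), the CCR4 catalytic subunit, was at 11.35, 11.25 and 11.01 and then at 12.69, 12.39, 13.03 and 12.82 in the mutant, above the 11.17 to 12.03 of wild type at 5-to-7 hours, and its interaction was 1.77 ± 0.35 (adjusted p = 0.0204). The more abundant twin transcript gave 1.42 ± 0.38 (adjusted p = 0.0574).

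From 3-to-5 hours and all samples, several groups needed for gene expression held more higher than lower calls. Of 46 mitochondrial ribosomal protein transcripts 7 were higher (15.2%, against 1.6% of all transcripts) and 1 lower (2.17%, against 1.55%), with a median of 0.27. The higher ones, such as mRpL24 at 1.62 ± 0.27 (adjusted p = 0.0104) and mRpL1 at 1.54 ± 0.28 (adjusted p = 0.0151), were all over 2-fold below wild type in the mutant at 3-to-5 hours, by -1.06 to -2.05, and within 2-fold of it at 5-to-7 hours, at -0.25 to 0.62. mRpL1 was at 14.25 to 14.46 in wild type but at 12.96, 13.09 and 12.85 in the mutant at 3-to-5 hours, and at 14.11 to 14.97 against 14.46 to 14.79 at 5-to-7 hours. With wild-type replicates 1 and 2 the median was -0.05, with 7 higher and 2 lower (beside 3.22% and 3.45%), and with replicates 3 and 4 it was 0.63. With 1-to-3 hours as the earlier time point the median was -0.31, with 1 transcript called higher and 3 lower, beside 2.08% and 2.63% of all transcripts. From there with replicates 1 and 2 alone it was -0.64, with none higher and 11 lower (beside 4.11% and 5.34%). mRpS5, the 1 lower call from 3-to-5 hours and all samples, had the mutant at 12.58 to 13.04 and then at 9.84 to 11.31 (-1.83 ± 0.44, adjusted p = 0.0419).

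Of 40 transcripts of RNA polymerase II, the general transcription factors and Mediator, 2 were higher (5%, against 1.6% of all transcripts) and none lower (against 1.55%). From 1-to-3 hours 2 were higher and 5 lower, beside 2.08% and 2.63% of all transcripts. From there with wild-type replicates 1 and 2 alone, 2 were higher and 7 lower (beside 4.11% and 5.34%). The Mediator subunit MED1 was at 13.34 to 13.87 and then at 11.37 to 12.03 in wild type while the mutant was at 11.37, 11.42 and 11.43 and then at 10.91, 10.84, 11.68 and 10.91, and its interaction was 1.56 ± 0.32 (adjusted p = 0.0227). MED14 gave 1.32 ± 0.33 (adjusted p = 0.0454), and also passed with 1-to-3 hours as the earlier time point (adjusted p = 0.0109), which MED1 did not (adjusted p = 0.246). MED14 lost its call in 13 of the 15 fits without 1 sample, against 5 for MED1. Of 29 proteasome transcripts, 2 were higher (6.9%, against 1.6% of all transcripts) and none lower (against 1.55%). They were Prosbeta1 (1.38 ± 0.32, adjusted p = 0.0333) and Rpn12 (1.08 ± 0.27, adjusted p = 0.0456), and neither was called with 1-to-3 hours as the earlier time point (0.53 and 0.06, adjusted p = 0.342 and 0.922). The median of the proteasome list was 0.13 with wild-type replicates 1 and 2 and 0.76 with replicates 3 and 4.

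The list drawn up for early zygotic genes of cellularization also held spri, a Ras and Rab regulator. The list gave the highest median, 1.95 over 7 transcripts of 5 genes, and all 7 were above 0. 1 was called higher (14.3%, against 1.6% of all transcripts). With 1-to-3 hours as the earlier time point 4 were, spri FBtr0089285 and FBtr0112689 among them, beside 2.08% of all transcripts. The call from all samples was spri FBtr0089285, and so was not of a cellularization gene. It was at 10.61 to 11.16 and then at 9.35, 9.27, 7.72 and 8.59 in wild type. In the mutant it was at 10.05 to 10.36 and then at 9.75 to 10.71 (2.26 ± 0.49, adjusted p = 0.0289). Of the others, nullo gave 2.66 ± 1.25 (adjusted p = 0.262) and Z600 gave 2.32 ± 0.88 (adjusted p = 0.165). Their wild-type levels at 5-to-7 hours were lower in replicates 3 and 4, at 4.67 and 5.86 for nullo against 9.75 and 8.91 in replicates 1 and 2.

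For the germ plasm and the PGC markers the interaction from 3-to-5 hours turned on which wild-type samples were used. None of 52 germ plasm and PGC formation transcripts of 42 genes was called, and the median was 0.48. It was -0.28 with wild-type replicates 1 and 2 and 1.39 with replicates 3 and 4. nos, the posterior determinant and germline translational repressor, shows this. It was at 13.73 to 13.97 in wild type at 3-to-5 hours, at 13.80 and 13.69 in replicates 1 and 2 at 5-to-7 hours and at 11.06 and 12.07 in replicates 3 and 4, while the mutant was at 14.55 to 14.84 and 14.74 to 14.80. Its interaction was 1.29 ± 0.68 (adjusted p = 0.316), or 0.20 and 2.38 with each pair. BicC, an RNA-binding translational repressor, had the largest value of the list at 1.96 ± 0.69 (adjusted p = 0.137). It was called with 1-to-3 hours as the earlier time point, at 3.34 ± 0.70 (adjusted p = 0.0179), as was gcl, which is required for PGC formation, at 1.89 ± 0.35 (adjusted p = 0.0102). From there with replicates 1 and 2 alone, BicC was at 2.28 (adjusted p = 0.00489) and gcl at 1.46 (adjusted p = 0.00403). The germ plasm median from 1-to-3 hours was 1.18, with 5 of 52 higher (beside 2.08% of all transcripts) and none lower. With replicates 1 and 2 alone it was 0.42, with 5 higher and 1 lower (beside 4.11% and 5.34%). Of 12 PGC marker transcripts, 3 were higher and none lower in each of these.

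Somatic transcripts gave the mirror image. Of the 1950 soma-enriched transcripts, 20 were higher (1.03%) and 53 lower (2.72%), against 1.6% and 1.55% of all transcripts. Their median was -0.52, and became 0.19 with wild-type replicates 1 and 2 and -1.23 with replicates 3 and 4. The 2260 PGC-enriched ones had 58 higher (2.57%) and 28 lower (1.24%), with medians of 0.59, -0.01 and 1.17. None of the 24 somatic marker transcripts was called from all samples. With wild-type replicates 1 and 2, 9 were higher (median 0.88), beside 3.22% of all transcripts. With replicates 3 and 4, 12 were lower (median -1.26), beside 11.6% of all transcripts. From all samples 1 of 12 PGC marker transcripts was called, bam (8.33% higher, against 1.6% of all transcripts). The mesoderm factor sna was at 8.14 and 7.61 in wild-type replicates 1 and 2 but at 13.55 and 13.71 in replicates 3 and 4, against 8.59 to 9.78 in the mutant, and its interaction was -2.98 ± 1.70 (adjusted p = 0.359). Not every marker moved this way. zen, also on the list, was at 11.16 and 10.73 in replicates 1 and 2 but at 6.84 and 9.16 in replicates 3 and 4. Its interaction was 2.37 ± 1.04 (adjusted p = 0.225).

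**Figure D5:**
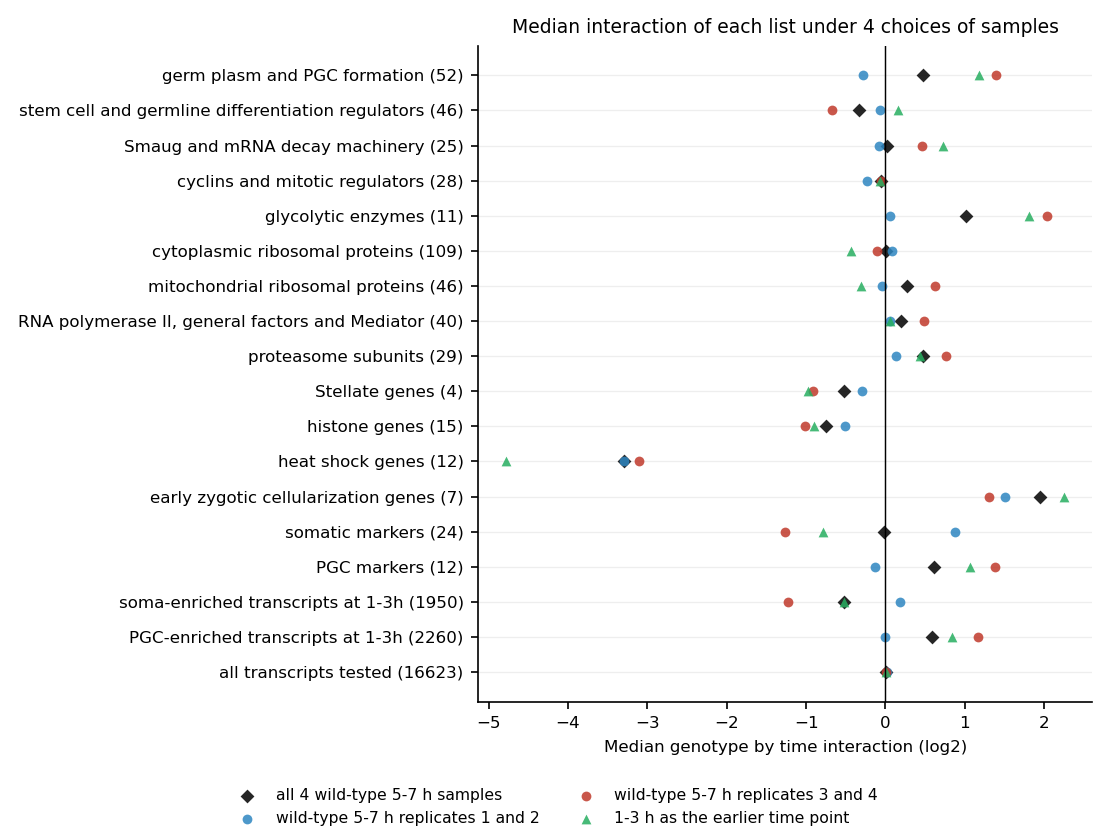
Median interaction, in log2 units (x axis), of each list with its number of transcripts (y axis), from all samples, with wild-type 5-7h replicates 1 and 2, with replicates 3 and 4, and with 1-3 h as the earlier time point. The heat shock list lies between -3.11 and -4.78 under all 4 choices, whereas the germ plasm, PGC marker, soma-enriched and somatic marker lists lie on either side of 0 with the 2 wild-type pairs.

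The remaining lists held few calls. Of 28 cyclin and mitotic regulator transcripts none was called. The values farthest from 0 were CycJ at 1.92 ± 0.93 (adjusted p = 0.275) and Cdk4 at -1.74 ± 0.53 (adjusted p = 0.0927). 1 of 15 histone transcripts was lower (6.67%, against 1.55% of all transcripts), His1:CG33861 at -1.52 ± 0.34 (adjusted p = 0.0309), and 13 of the 15 values were below 0. 1 of the 4 Stellate transcripts was lower (25%, against 1.55% of all transcripts). This was Ste:CG33236, at 10.56 to 11.13 and then at 11.83 to 13.04 in wild type against 11.09 to 11.28 and 10.83 to 11.72 in the mutant (-1.64 ± 0.41, adjusted p = 0.0477). Its call was lost in 13 of the 15 fits without 1 sample. It was not called with wild-type replicates 1 and 2 (adjusted p = 0.0565). Nor was it with 1-to-3 hours as the earlier time point (adjusted p = 0.0742). Histone and Stellate genes are multicopy families whose probes may share signal.

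Of the called transcripts that did not pass 2-fold with each wild-type pair, the largest named values on the higher side were CG14270 (1.44), MAN1 (1.40), Snp (1.33) and CG15814 (1.28), and on the lower side Df31 (-1.38), oys (-1.26), CG2765 (-1.25) and sdk (-1.24). With wild-type replicates 1 and 2 the 4 higher ones lay between 0.86 and 0.96 and the 4 lower ones between -0.99 and -0.90. MAN1, an inner nuclear membrane protein, was at 13.48 to 13.64 in wild type but at 11.67, 11.62 and 11.85 in the mutant at 3-to-5 hours. Of these 8 genes, only sdk was called with 1-to-3 hours as the earlier time point (-1.42 ± 0.34, adjusted p = 0.0328).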

How the data were processed

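The deposited table holds linear intensity values of custom NimbleGen arrays, 1 per feature and sample, which the authors quantified with Nimblescan and normalized by the RMA quantile method in ArrayStar 3. They were log2-transformed, and 16623 transcript features were tested, without a filter, while 507 others were left out. The table has no gene names. 5383 transcripts of 4793 genes were named by matching values in the study's supplementary tables to the same quantities computed from the table, and 103 ambiguous entries of 1 shortened table were left out. The study's own fold changes served only for this. Those tables hold transcripts picked by expression, change or constancy in wild-type samples, some of which are in the interaction.

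The interaction was fitted with limma (version 3.58.1, R 4.3.3) on 15 samples without covariates, and called at an adjusted p of at most 0.05 and above 2-fold. The number of arrays limits the precision. Replicates are those of the labels, and p-values measure the spread between them, which may be partly technical. SAM, which the methods name, was not used, because its ratios leave out the earlier time point's spread. The script was tested on simulated data.

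Named genes are smg, per direction the 8 largest called interactions that pass 2-fold with each wild-type pair and whose highest group mean lies above the array mean, the 4 largest that do not, and up to 4 per list. A gene is represented by its most abundant transcript. Other genes and isoforms named in the report are called list members, chosen after their values were seen, or complete the heat shock list. Members and lists were chosen with earlier results of these data known. Soma- and PGC-enriched lists come from 1-to-3 hour PGCs and somatic cells.

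Alternatives were the wild-type pairs, leaving out samples, a replicate block, other scalings, array weights, an intensity trend, all groups in 1 fit, another earlier time point, a filter, a 2-fold null and ratios. No build was given in the sources used here, so no coordinates are printed.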

Additional observations from a re-analysis of the deposited data

Results flagged for a closer look

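The difference in late change between the genotypes was itself the test here, and it was passed by 266 transcripts in the higher and 258 in the lower direction. Within groups of 4, 3 single samples of named transcripts lay far from the other 3, by a gap of more than 0.829 of the group's range. CG18171 was at 10.36 in wild-type PGC 3-to-5 hour replicate 2, above the other 3 samples. Rga was at 12.29 in wild-type PGC 5-to-7 hour replicate 2, below the others, which were at 12.47 to 12.49. MED1 was at 11.68 in mutant PGC 5-to-7 hour replicate 3, above the others. Chance alone gives such a gap in about 1 of 20 groups, and 234 groups were looked at.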

How the results depend on the processing

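The counts of 266 higher and 258 lower transcripts moved with most settings. They were 536 and 574 with wild-type 5-to-7 hour replicates 1 and 2 alone, 2268 and 1926 with replicates 3 and 4 alone, 345 and 438 with 1-to-3 hours as the earlier time point, and 683 and 887 with both that time point and replicates 1 and 2, a setting chosen after seeing the data. They were 107 and 128 with the replicate number as a block, 537 and 573 with array weights, 768 and 645 with all 7 groups in 1 fit, 0 and 6 in the test against 2-fold, 595 and 560 for ratios to the previous time point, 352 and 321 over 10466 transcripts with a mean log2 of at least 6, 314 and 270 with an intensity trend, 200 and 270 with median centring, and 279 and 270 with a second quantile normalization. Leaving out 1 sample gave 61 to 534 and 85 to 448. The soma-enriched median of -0.52 became 0.19 with replicates 1 and 2, -1.23 with replicates 3 and 4, 0.057 with array weights and 0.19 with 1-to-3 hours and replicates 1 and 2, and -0.784 to -0.277 with a sample left out. The PGC-enriched median of 0.59 became -0.0058, 1.17, 0.113 and 0.25 under these 4 settings, and 0.349 to 0.808 with a sample left out. The cause of these shifts was not tested.

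Of 38 called named transcripts, 26 kept their call with wild-type replicates 1 and 2, 38 with replicates 3 and 4, 16 with 1-to-3 hours as the earlier time point, 17 with the replicate block, 30 with median centring, 36 with a second quantile normalization, 32 with array weights, and 11 to 36 with a sample left out. Same-numbered samples of different groups had deviations that correlated at -0.107 to 0.216 in 21 pairs, against -0.242 to 0.186 in 63 pairs of different numbers. With so few samples per group, this does not settle whether replicate numbers pair the samples.

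Some values changed sign. With 1-to-3 hours as the earlier time point, and then with that and replicates 1 and 2, smg FBtr0076549 was at 1.69 and 1.66, CG14270 at -0.18 and -0.67, SNCF at -0.059 and -0.27, AGO1 at 0.47 and 0.19, CycA at 0.26 and 1.14, Taf13 at -0.56 and -1.05, Pros28.1 at -0.019 and -0.99, Ste:CG33245 at -1.08 and -1.41, and Z600 at -0.73 and -1.90. With both together only, MAN1 was at -0.12, Snp at -0.057, dlp at 0.060, CycJ at -0.028, mRpS11 at -0.39, nullo at -0.60, sna at 1.25, zen at -0.85, Mef2 at 0.14, sc at 0.79 and aub at -0.68. With replicates 1 and 2, smg FBtr0076550 was at -0.029, otu at -0.088, Gapdh2 at -0.32, Ste:CG33246 at 0.032, Ste:CG33245 at -0.31 and sc at 0.39. With array weights Gapdh2 was at -0.023, Ste:CG33246 at 0.060, Ste:CG33245 at -0.17 and sc at 0.0035. Ste:CG33245 FBtr0073882 was at -0.00215 with the replicate block and -0.019 with median centring. With a sample left out, smg FBtr0076549 was at -0.66 to 0.50, smg FBtr0076550 at -0.046 to 0.264 and Ste:CG33245 at -0.31 to 0.22. Array signal over background limits what can be said of CG14014, stv and Hsp67Bb FBtr0100653, whose mean was at the level of the control features in at least 1 group. The same holds for Tpi, which was below that level in wild-type 5-to-7 hour replicates 3 and 4 (4.94 and 4.64).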

Other observations

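The following genes were chosen after their values were seen. In the full fit and in every alternative other than the filter on low values, the test against 2-fold and the ratios to the previous time point, 16 transcripts were called higher and 47 lower. Among the lower ones were 3 transcripts encoded by the mitochondrial genome. mt:CoI and mt:CoII, subunits of cytochrome c oxidase, were at -2.25 ± 0.41 (SE, adjusted p = 0.0155 by limma) and -1.95 ± 0.32 (adjusted p = 0.0104), and mt:ATPase6, a subunit of ATP synthase, was at -1.93 ± 0.31 (adjusted p = 0.0091). The mutant mean minus the wild-type mean of mt:CoI, mt:CoII and mt:ATPase6 was 1.46, 1.85 and 1.76 at 1-to-3 hours and 1.83, 2.22 and 1.86 at 3-to-5 hours. At 5-to-7 hours it was -0.42, 0.27 and -0.07, so that an earlier excess in the mutant had closed. Others among the lower ones were Ptpmeg, a protein tyrosine phosphatase, at -2.55, and the adaptor protein 14-3-3zeta at -1.38. Among the higher ones were Hecw, a HECT-domain ubiquitin ligase, at 2.69 ± 0.34 (adjusted p = 0.00227), and Lasp, an actin-binding protein, at 2.10.

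Of 8 transcripts of the Enhancer of split complex and its relatives, whose genes respond to Notch, E(spl) and HLHm7 (-2.53 ± 0.48, adjusted p = 0.0174) were called lower, beside 1.55% of all transcripts. All 8 values were below 0 from all samples, but with wild-type 5-to-7 hour replicates 1 and 2 HLHm5 was at 0.29 and malpha at -0.09. HLHmdelta was at -5.10 ± 1.37 (adjusted p = 0.0585), and the other 5 lay between -2.69 and -0.88. m4 was at -1.38, but at -0.04 with wild-type 5-to-7 hour replicates 1 and 2 and -2.73 with replicates 3 and 4.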
